A study of Mus musculus with 6 samples.

Results

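The genes described here are 46 mouse genes that act in mitosis and in the spindle checkpoint. They are the cyclins and kinases of mitotic entry, checkpoint and kinetochore proteins, spindle motors, condensin subunits and cytokinesis factors. The genes were chosen by symbol, with earlier results of these data known but with no cut on their measured values. They come from the 22098 gene symbols of a table of RPKM (read density scaled for transcript length and sequencing depth). Where a symbol had several transcript rows, the one with the highest mean RPKM was kept. All 46 were found, and all 46 passed the filter on low values, which kept 11379 genes with at least 1 RPKM in at least 2 of the 6 libraries.

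Mitosis starts when Cdk1 bound to cyclin B becomes active, with Cdc25 phosphatases removing inhibitory phosphates from Cdk1. Chromosomes are compacted by condensin and are captured by spindle microtubules at kinetochores, and the spindle checkpoint holds back the anaphase-promoting complex and its activator Cdc20 until every kinetochore is attached. Separase then cuts cohesin, and the midzone and the contractile ring divide the cell. Many of these genes are transcribed together late in the cell cycle under B-Myb, FoxM1 and the MuvB complex.

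The study compared 3 genotypes on the C57BL/6 background: the mutant labelled Ikaros_ZnF1-/- (ZnF1 mutant), the mutant labelled Ikaros_ZnF4-/- (ZnF4 mutant) and wt (wild type). Ikaros, encoded by Ikzf1, is a zinc finger transcription factor of lymphocytes, and the labels name one finger of its DNA-binding domain for each mutant. In all 3 genotypes, wild type included, whole bone marrow had been transduced at day 0 with a retrovirus carrying BCR-ABL-p185-IRES-YFP, which couples the leukaemia oncogene to a yellow fluorescent protein, and poly(A) RNA was sequenced after 21 and 28 days of culture. There was 1 library per genotype and day, 6 in all. The labels give neither the age of the mice nor whether the days or genotypes came from separate mice or cultures. The p-values therefore rest on the spread left between libraries once a day change shared by all genotypes is removed. That spread may be technical.

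The cells are labelled pro-B leukaemia, and the 9 pro-B markers examined, among them Cd79a, Ebf1 and Pax5, were all above 0 in every library and summed to 2498.1 and 2515.6 RPKM in the ZnF1 mutant at day 21 and day 28, to 2673.8 and 2441.2 RPKM in the ZnF4 mutant, and to 2470.8 and 2280.0 RPKM in wild type. Within this list limma called Il7r higher in the ZnF1 mutant than in wild type (1.02 on the log2 scale, adjusted p = 0.00109). Igll1 was called higher (0.54, adjusted p = 0.0303) and Dntt lower (-2.06, adjusted p = 0.00396) in the ZnF4 mutant than in wild type. Each was 1 of the 9 markers (11.1%), where 22.9%, 10.9% and 7.32% of all tested genes were called in these 3 directions. When any 1 library was left out, the Il7r call held in 6 of 6 fits, the Dntt call in 4 and the Igll1 call in 0. Markers of other cells also differed with genotype. The 13 macrophage markers summed to 2149.7 and 2031.4 RPKM in the ZnF1 mutant, to 220.3 and 283.9 RPKM in the ZnF4 mutant and to 539.7 and 344.7 RPKM in wild type, with none at 0. Over all tested genes, 22.9% were called higher in the ZnF1 mutant than in wild type and 7.32% lower in the ZnF4 mutant. These shares stand beside the counts of macrophage and stromal markers that follow. Of the macrophage markers, 13 of 13 were called higher in the ZnF1 mutant and 8 of 13 lower in the ZnF4 mutant than in wild type. With 1 library left out, 11 to 13 were still called higher in the ZnF1 mutant, but 0 to 3 lower in the ZnF4 mutant. The 10 stromal markers, of which Lum was at 0 throughout, summed to 173.0 and 164.9 RPKM in the ZnF1 mutant, to 18.2 and 17.9 RPKM in the ZnF4 mutant and to 38.8 and 25.4 RPKM in wild type. Of the 9 that were tested, 9 were called higher in the ZnF1 mutant and 4 lower in the ZnF4 mutant, and with 1 library left out 7 to 9 and 0 to 2. Granulocyte markers summed to at most 2.5 RPKM and erythroid markers to at most 1.2 RPKM in any library, and among the T-cell markers Cd3e, Cd3g and Cd8a were at 0 and Cd3d at 0.1 RPKM. Lck, a kinase that T cells express, had 11.7 and 30.5 RPKM in the ZnF1 mutant, 16.9 and 15.8 RPKM in the ZnF4 mutant and 36.3 and 46.7 RPKM in wild type. It was called lower in the ZnF1 mutant (-1.08, limma adjusted p = 0.0495) but not in the ZnF4 mutant (-1.28, adjusted p = 0.0508), and the ZnF1 call held in 1 of 6 fits with a library left out. Ikzf1 had 108.0 and 91.4 RPKM in the ZnF1 mutant, 186.0 and 165.9 RPKM in the ZnF4 mutant and 89.2 and 78.7 RPKM in wild type, a level that does not show which finger is missing.

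The mitosis genes were lower in the ZnF1 mutant than in wild type nearly without exception. In limma's moderated test on log2(RPKM + 1), with genotype and day in the model, 43 of 46 were called lower and 0 higher at a Benjamini-Hochberg adjusted p below 0.05, against 15.2% of all tested genes called lower and 22.9% called higher. Differences between the mutant and wild type ranged from -0.93 to -0.23 on the log2 scale with a median of -0.52, where the median of all tested genes was -0.02. Both ZnF1 libraries lay below both wild-type libraries for all 46 genes, an arrangement found in 33.4% of all tested genes. The median difference was -0.54 at day 21 and -0.49 at day 28, and the 3 genes not called were Pttg1, Birc5 and Anln. The macrophage and stromal sums given above moved the opposite way, and their part in this difference was not tested. In bulk RNA, fewer cycling cells and less of these transcripts per cell cannot be told apart. The number of calls rested on every library of the comparison. It was 4 without the day 21 library of the ZnF1 mutant, 13 without its day 28 library, and 3 without either wild-type library. All 46 differences stayed negative in each of these fits.

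The ZnF4 mutant stood above wild type by a smaller margin. Of the 46 genes, 13 were called higher and 0 lower, against 10.9% of all tested genes called higher and 7.32% called lower. The genes that rose were Bub1, Bub1b, Espl1, Aurkb, Cdca8, Cenpf, Ndc80, Tpx2, Prc1, Racgap1, Anln, Ncaph and Foxm1, and differences over all 46 ran from -0.16 to 0.62 with a median of 0.25, against a median of 0.02 over all tested genes. Both ZnF4 libraries lay above both wild-type libraries for 31 of 46 genes, where 30.9% of all tested genes did so. They lay below both only for Cdc25b and Pttg1, an arrangement found in 24.6% of all tested genes. With any 1 of the 6 libraries left out, 0 to 2 of the 46 were called. The count was 0 without the day 21 library of the ZnF4 mutant or without either wild-type library, and 1 without the day 28 library of the ZnF4 mutant. It was 2 without either ZnF1 library, which enters only through the shared estimate of the spread. The count also fell to 6 without the filter on low values and to 2 with only the ZnF4 and wild-type libraries fitted, and reached 24 with the libraries scaled to 5 pro-B genes.

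Between the mutants the median difference was wider than in either comparison with wild type. In the ZnF4 mutant 45 of 46 genes were called higher than in the ZnF1 mutant, against 22.3% of all tested genes, with a median difference of 0.77 against 0.03 over all tested genes, and 0 were called lower, against 23.2%. Both ZnF4 libraries lay above both ZnF1 libraries for those 45 genes, where 37.0% of all tested genes did so. Pttg1 was the exception. All 13 macrophage markers (median -2.95) and all 9 tested stromal markers (median -2.32) were called lower in the ZnF4 mutant than in the ZnF1 mutant, and their part in this difference was not tested. With 1 library left out, 33 to 44 were called, and 31 of the 45 were called in every such fit. For 34 of 46 genes the order on both days was ZnF4 mutant, then wild type, then ZnF1 mutant, an order seen in 14.0% of all tested genes. Both comparisons with wild type use the same wild-type libraries, so their differences are not independent of each other.

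**Figure D1:**
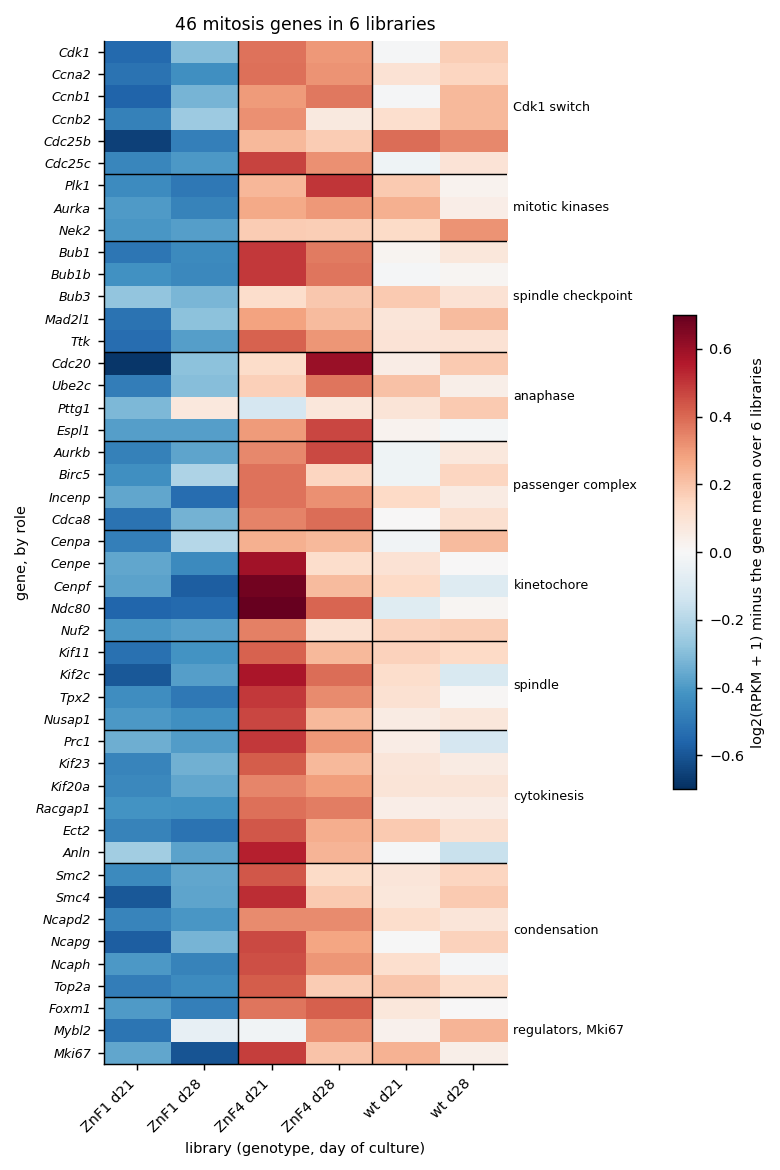
Heat map of log2(RPKM + 1) minus each gene's mean over the 6 libraries (colour scale, log2 units), with the 46 genes down the page by role and the libraries across, ZnF1 mutant, ZnF4 mutant and wild type at day 21 and day 28. The ZnF1 columns lie below both wild-type columns in all 46 rows (33.4% of all tested genes). The ZnF4 columns lie above both wild-type columns in 31 rows (30.9% of all tested genes).

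**Figure D2:**
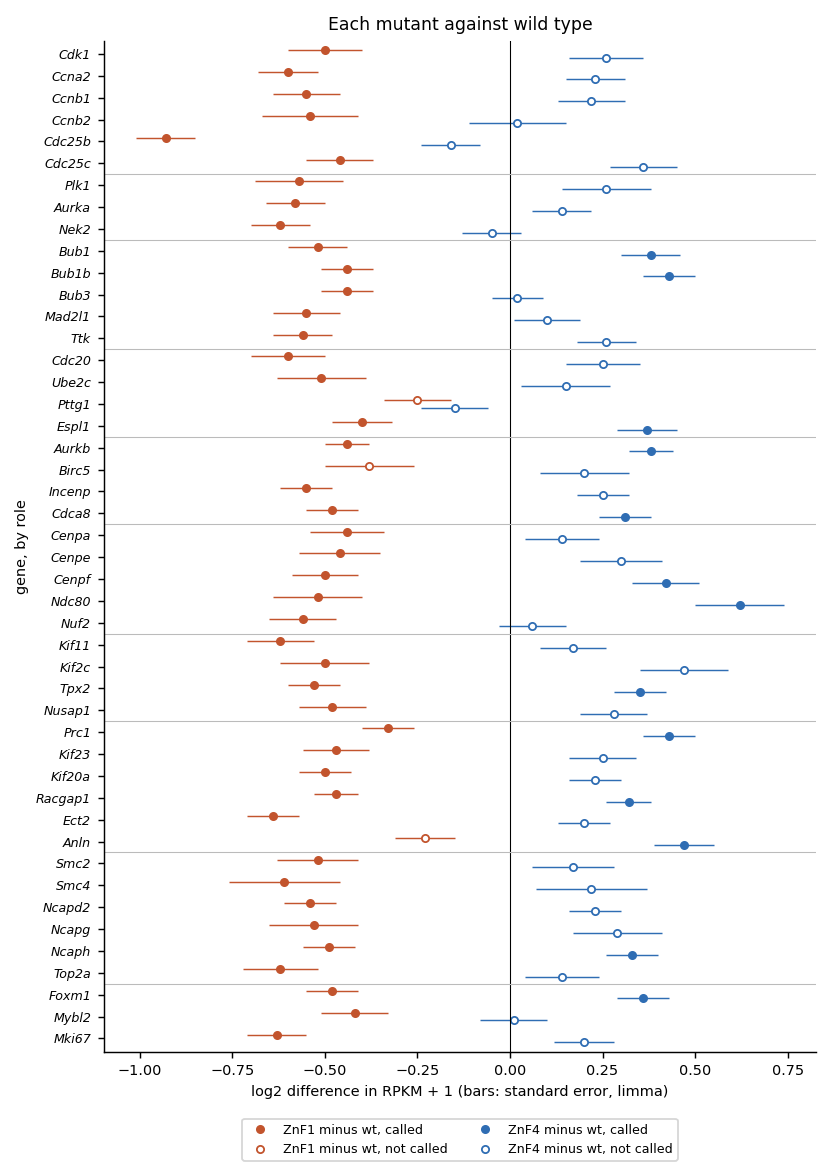
Log2 difference in RPKM + 1 from wild type for each of the 46 genes (points) with its standard error from limma (bars), for the ZnF1 mutant and the ZnF4 mutant; filled points passed an adjusted p of 0.05. Differences run from -0.93 to -0.23 in the ZnF1 mutant, with 43 filled points, and from -0.16 to 0.62 in the ZnF4 mutant, with 13.

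The promoters of many of these genes carry a shared pair of sequence elements. Whether these elements have a part in the differences was not tested. The CHR (cell cycle genes homology region), to which the MuvB complex binds, was searched as TTTGAA and its variant TTCGAA, and the CCAAT box, bound by NF-Y, as CCAAT, on both strands of the RefSeq promoter windows of GRCm38.p6, from 250 bases before to 50 bases after each transcript start. A window was listed for 38 of the 46 genes, 41 windows in all because 3 genes had a pair of them. Aurkb, Ccna2, Cdc25c, Foxm1, Incenp, Kif20a, Smc4 and Tpx2 had none in the table. In the sequences below, written 5′ to 3′ on the gene's strand, capitals mark CHR, CHR variant and CCAAT letters in either orientation. The windows are Cdk1 at chr10:69352863-69353162 on the minus strand, Bub1 at chr2:127831810-127832109 on the minus strand, Racgap1 at chr15:99651607-99651906 on the minus strand, Cdc25b at chr2:131186698-131186997 on the plus strand and Pttg1 at chr11:43425932-43426231 on the minus strand. They stand for the kinase of mitotic entry, a checkpoint kinase, a cytokinesis factor, the gene that differed most between the ZnF1 mutant and wild type, and the gene that differed least between the mutants.
Cdk1: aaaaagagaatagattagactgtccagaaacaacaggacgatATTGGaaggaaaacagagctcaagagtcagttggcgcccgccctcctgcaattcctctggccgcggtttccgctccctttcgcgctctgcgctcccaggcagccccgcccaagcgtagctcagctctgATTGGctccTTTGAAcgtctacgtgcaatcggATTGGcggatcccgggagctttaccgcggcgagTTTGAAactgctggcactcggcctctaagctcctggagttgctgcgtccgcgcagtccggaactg
Bub1: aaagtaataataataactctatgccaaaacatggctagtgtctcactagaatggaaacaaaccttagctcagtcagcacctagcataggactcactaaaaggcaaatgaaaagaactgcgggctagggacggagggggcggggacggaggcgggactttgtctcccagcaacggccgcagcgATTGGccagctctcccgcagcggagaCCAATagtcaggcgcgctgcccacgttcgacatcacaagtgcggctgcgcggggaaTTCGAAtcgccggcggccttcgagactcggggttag
Racgap1: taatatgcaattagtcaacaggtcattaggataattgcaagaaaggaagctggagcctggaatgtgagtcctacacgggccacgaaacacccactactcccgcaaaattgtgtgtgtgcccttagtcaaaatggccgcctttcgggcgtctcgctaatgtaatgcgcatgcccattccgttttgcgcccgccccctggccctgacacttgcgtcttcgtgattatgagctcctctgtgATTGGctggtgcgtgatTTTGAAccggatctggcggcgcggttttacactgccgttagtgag
Cdc25b: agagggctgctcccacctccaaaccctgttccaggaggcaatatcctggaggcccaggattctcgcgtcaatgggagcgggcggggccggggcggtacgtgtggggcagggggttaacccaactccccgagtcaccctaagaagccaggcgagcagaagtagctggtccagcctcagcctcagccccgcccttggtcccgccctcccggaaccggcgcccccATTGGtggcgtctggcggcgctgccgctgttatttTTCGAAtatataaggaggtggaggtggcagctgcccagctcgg
Pttg1: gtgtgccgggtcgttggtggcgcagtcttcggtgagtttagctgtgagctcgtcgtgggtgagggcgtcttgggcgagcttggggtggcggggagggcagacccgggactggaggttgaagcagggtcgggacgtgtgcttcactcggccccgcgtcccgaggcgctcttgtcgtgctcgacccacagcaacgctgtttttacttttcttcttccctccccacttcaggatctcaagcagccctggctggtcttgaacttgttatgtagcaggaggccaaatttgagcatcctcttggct

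TTTGAA was present in 70.7% of the windows of the mitosis genes and in 17.9% of all 32851 RefSeq windows, and the variant TTCGAA in 9.76% and 1.56%. CCAAT was present in 75.6% of their windows and in 37.4% of all windows, and a CCAAT together with either form of the CHR in 68.3% and 7.52%. Of the 42 matches to either form of the CHR in the genes' windows, 28 began within 50 bases of the transcript start. That is 66.7%, against 25.2% of such matches in all windows. Bub3, Ect2 and Prc1 have a pair of windows with matches at the same spacing, so their sites are counted in both. In the Cdk1 window the 2 CHR matches began 71 and 15 bases before the start, and in Racgap1 the CHR began at base 6 with a CCAAT 12 bases before the start. Bub1 and Cdc25b hold the variant, at base 15 and base 8. Pttg1 holds neither element. The E2F letters GCGGGAA were found in 2.44% of the genes' windows and in 4.6% of all windows. A second E2F form, GCGCGAA, was found in 2.44% and 1.59%. Each form was present in only 1 of the genes' 41 windows. The Ikaros core GGGAA, which GCGGGAA contains, was found in 58.5% and 62.7%. TTTGAA and CCAAT can share a base at their ends. These are matches of letters, not measured binding.

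Differences were also read by the letters in the window. The 28 genes with TTTGAA or TTCGAA had a median difference of -0.52 in the ZnF1 mutant against wild type and of 0.26 in the ZnF4 mutant against wild type, where 9 of the 28 were called. The 10 genes with a window but neither form had medians of -0.48 and 0.15, with 1 of the 10 called in the ZnF4 mutant. The 7 genes without either the CCAAT box or the CHR were Birc5, Mad2l1, Mybl2, Ncaph, Nuf2, Nusap1 and Pttg1, with medians of -0.48 and 0.10. Between the mutants the medians of these groups were 0.78, 0.64 and 0.63. There 28, 9 and 6 of their genes were called higher in the ZnF4 mutant, against 22.3% of all tested genes. Whether the groups of windows differ was not tested.

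**Figure D3:**
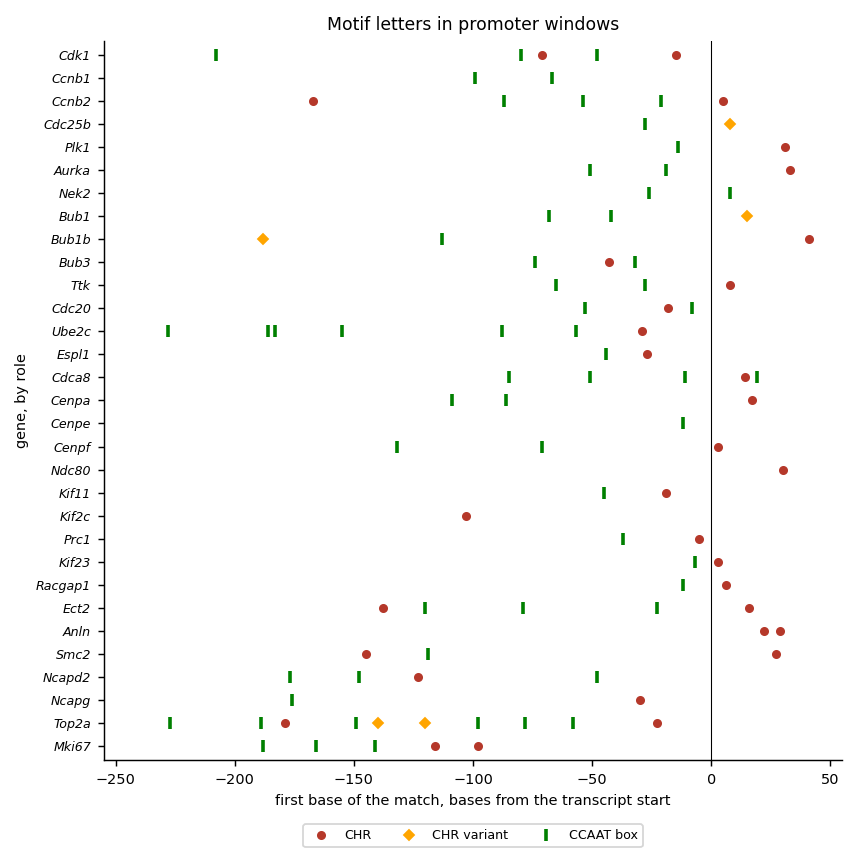
Positions of CHR, CHR variant and CCAAT letters in the first promoter window of each gene that holds any (rows, by role), as bases from the transcript start (x axis, 0 at the start). Most CHR letters lie close to the start: 28 of the 42 matches over all 41 windows began within 50 bases of it. That count includes the sites of Bub3, Ect2 and Prc1 in both of their windows.

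Among the genes of the Cdk1 switch all 6 fell in the ZnF1 mutant, with a median difference of -0.54. Ccna2 (cyclin A2, which partners Cdk2 and Cdk1) had 131.5 and 139.8 RPKM in the ZnF1 mutant at day 21 and day 28, 246.5 and 234.9 RPKM in the ZnF4 mutant and 202.2 and 209.3 RPKM in wild type. The 3 genotypes did not overlap, and the difference from wild type was -0.60 ± 0.08 (SE) in the ZnF1 mutant (limma, adjusted p = 0.00454) and 0.23 ± 0.08 in the ZnF4 mutant (adjusted p = 0.123). Cdk1 itself had 33.5 and 40.0 RPKM in the ZnF1 mutant, 64.5 and 61.1 RPKM in the ZnF4 mutant and 49.0 and 55.8 RPKM in wild type, again without overlap, with differences of -0.50 ± 0.10 (adjusted p = 0.0147) and 0.26 ± 0.10 (adjusted p = 0.141). Ccnb2, a B-type cyclin that activates Cdk1, had 73.5 and 85.9 RPKM in the ZnF1 mutant, 128.2 and 107.6 RPKM in the ZnF4 mutant and 111.2 and 120.2 RPKM in wild type. Its ZnF4 libraries lay on either side of the wild-type pair, with a difference of 0.02 ± 0.13. Ccnb1, the other B-type cyclin, was the lowest of the 46 genes by mean RPKM, with 5.9 and 7.1 RPKM in the ZnF1 mutant, 11.5 and 12.1 RPKM in the ZnF4 mutant and 9.1 and 10.9 RPKM in wild type. RefSeq lists a pseudogene copy of Ccnb1, Ccnb2, Aurkb and Kif2c, and no source used here says how reads shared with such copies were counted.

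Cdc25b, a phosphatase that starts Cdk1 activation, departed from the common order. It had 34.2 and 38.7 RPKM in the ZnF1 mutant and 63.9 and 61.6 RPKM in the ZnF4 mutant. Wild type had 71.5 and 69.0 RPKM, so that both mutants lay wholly below it. Both ZnF1 libraries lay below wild type in 33.4% of all tested genes, and both ZnF4 libraries in 24.6%. The difference from wild type was -0.93 ± 0.08 in the ZnF1 mutant (limma, adjusted p = 0.00161), the lowest of the 46, and -0.16 ± 0.08 in the ZnF4 mutant (adjusted p = 0.266). It was also the only one of the 43 genes called against wild type in the ZnF1 mutant that was called in every fit with 1 library left out, with differences from -1.04 to -0.82. Its paralogue Cdc25c, which acts in the same step, had 12.3 and 12.8 RPKM in the ZnF1 mutant, 24.3 and 21.8 RPKM in the ZnF4 mutant and 16.9 and 18.5 RPKM in wild type, and followed the common order. Exons of Cdc25b overlap those of Spef1 on the opposite strand, and those of Ccna2 overlap Exosc9. For the other 5 genes of the switch, each call in the ZnF1 mutant was lost without at least 1 library, with adjusted p-values of up to 0.209.

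**Figure D4:**
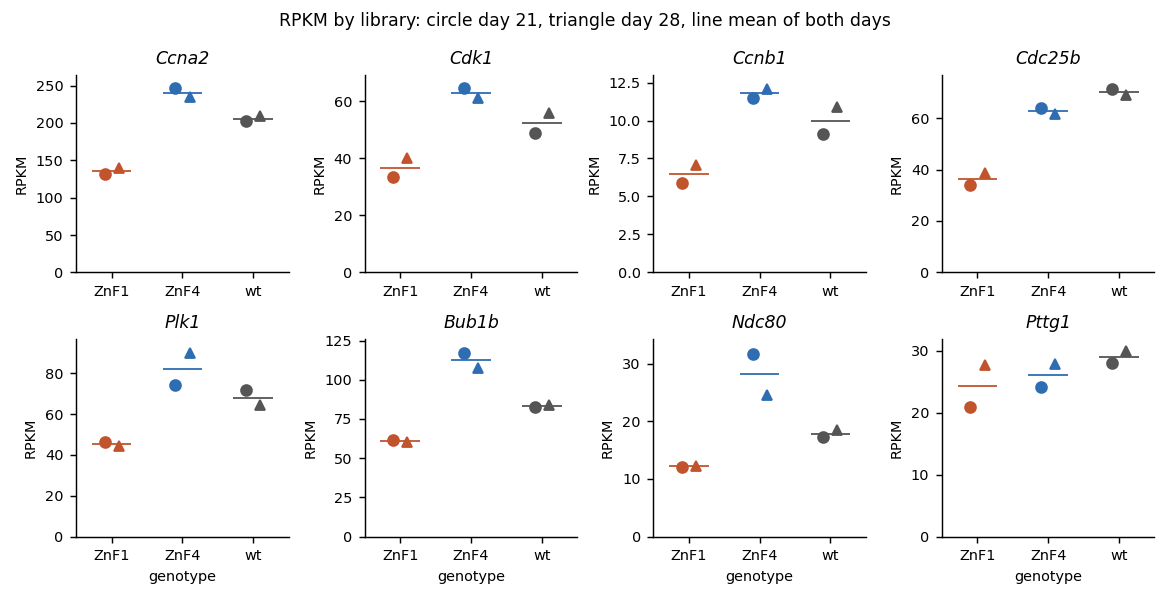
RPKM (y axis, from 0) of 8 of the genes in each library, with the ZnF1 mutant, the ZnF4 mutant and wild type along the x axis, day 21 as circles, day 28 as triangles and the mean of both days as a line. Cdc25b is highest in wild type (71.5 and 69.0 RPKM), whereas Ndc80 is highest in the ZnF4 mutant (31.7 and 24.6 RPKM), and the day 28 Pttg1 values of the mutants are 27.8 and 27.9 RPKM.

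The mitotic kinases Plk1, Aurka and Nek2, which act on centrosomes and the spindle, all fell in the ZnF1 mutant. Aurka had 53.0 and 50.5 RPKM in the ZnF1 mutant, 84.5 and 86.9 RPKM in the ZnF4 mutant and 83.5 and 72.6 RPKM in wild type, and its difference from wild type was -0.58 ± 0.08 in the ZnF1 mutant (limma, adjusted p = 0.00544) and 0.14 ± 0.08 in the ZnF4 mutant (adjusted p = 0.323). Plk1 had 46.3 and 44.5 RPKM in the ZnF1 mutant, 74.5 and 90.1 RPKM in the ZnF4 mutant and 72.0 and 64.3 RPKM in wild type. In both genes the ZnF4 day 21 value lay close to the wild-type day 21 value. Nek2, with 21.0 and 21.4 RPKM in the ZnF1 mutant, 32.0 and 31.9 RPKM in the ZnF4 mutant and 31.0 and 35.3 RPKM in wild type, had ZnF4 values between the 2 wild-type values and a difference of -0.05 ± 0.08 there, against -0.62 ± 0.08 in the ZnF1 mutant (adjusted p = 0.00365). All 3 calls in the ZnF1 mutant were lost without at least 1 library, with adjusted p-values of up to 0.162.

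All 5 spindle checkpoint genes fell in the ZnF1 mutant, and the kinase Bub1 and the related Bub1b, part of the complex that holds back Cdc20, rose in the ZnF4 mutant. Bub1b had 61.4 and 60.4 RPKM in the ZnF1 mutant, 117.3 and 107.7 RPKM in the ZnF4 mutant and 82.3 and 83.7 RPKM in wild type. The gaps between genotypes were wider than those between days. The differences from wild type, -0.44 ± 0.07 in the ZnF1 mutant (limma, adjusted p = 0.00852) and 0.43 ± 0.07 in the ZnF4 mutant (adjusted p = 0.0163), were nearly equal in size and opposite in sign. Bub1 had 19.8 and 20.7 RPKM in the ZnF1 mutant, 40.6 and 37.0 RPKM in the ZnF4 mutant and 28.9 and 30.2 RPKM in wild type. Bub3, which brings both to the kinetochore, had 71.6 and 69.6 RPKM in the ZnF1 mutant, 95.0 and 99.4 RPKM in the ZnF4 mutant and 98.9 and 93.4 RPKM in wild type. Unlike Bub1 and Bub1b, Bub3 overlapped between the ZnF4 mutant and wild type, with a difference of 0.02 ± 0.07. Ttk, the kinase that starts checkpoint signalling, and Mad2l1, which binds Cdc20, differed from wild type by -0.56 ± 0.08 and -0.55 ± 0.09 in the ZnF1 mutant and by 0.26 and 0.10 in the ZnF4 mutant. Neither of these 2 was called in the ZnF4 mutant. With 1 library left out, adjusted p-values reached 0.119 for the ZnF1 calls and 0.271 for the 2 ZnF4 calls, none of which held in every such fit.

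The anaphase genes held the one that differed least between the mutants. Cdc20, the checkpoint's target, and Ube2c, the ubiquitin-conjugating enzyme of the anaphase-promoting complex, fell in the ZnF1 mutant, with differences from wild type of -0.60 ± 0.10 (limma, adjusted p = 0.0088) and -0.51 ± 0.12 (adjusted p = 0.0224). Cdc20 had 36.3 and 47.9 RPKM in the ZnF1 mutant, 64.3 and 89.6 RPKM in the ZnF4 mutant and 60.8 and 66.9 RPKM in wild type, higher at day 28 in each genotype. Ube2c had 124.0 and 141.0 RPKM in the ZnF1 mutant, 195.3 and 225.5 RPKM in the ZnF4 mutant and 200.3 and 178.6 RPKM in wild type. Its ZnF4 and wild-type values overlapped. Pttg1 (securin, the inhibitor of separase) had 21.0 and 27.8 RPKM in the ZnF1 mutant, 24.2 and 27.9 RPKM in the ZnF4 mutant and 28.1 and 30.0 RPKM in wild type. The mutants overlapped each other and both lay below wild type. Their differences from it were -0.25 ± 0.09 (limma adjusted p = 0.0821) and -0.15 ± 0.09 (adjusted p = 0.318). Between the mutants the difference was 0.10 (adjusted p = 0.413). Among all tested genes, 33.4% had both ZnF1 libraries below wild type and 24.6% had both ZnF4 libraries below it. Espl1 (separase) did follow the common order, with 15.5 and 15.5 RPKM in the ZnF1 mutant, 25.5 and 28.8 RPKM in the ZnF4 mutant and 21.0 and 20.4 RPKM in wild type. It was called in both comparisons, with adjusted p-values of 0.0177 and 0.0363, and no call among these genes held against wild type in every fit with 1 library left out (adjusted p up to 0.184 for the ZnF1 calls and 0.273 for the ZnF4 call).

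In the chromosomal passenger complex, which corrects faulty attachments and later marks the midzone, Aurkb, Incenp and Cdca8 fell in the ZnF1 mutant and Aurkb and Cdca8 rose in the ZnF4 mutant. The kinase Aurkb had 54.1 and 58.3 RPKM in the ZnF1 mutant, 95.6 and 104.4 RPKM in the ZnF4 mutant and 73.8 and 79.5 RPKM in wild type, with differences from wild type of -0.44 ± 0.06 (limma, adjusted p = 0.00584) and 0.38 ± 0.06 (adjusted p = 0.017). Incenp, the scaffold of the complex, had 96.6 and 85.7 RPKM in the ZnF1 mutant, 162.8 and 156.0 RPKM in the ZnF4 mutant and 137.2 and 129.7 RPKM in wild type. Cdca8 (borealin) had 64.6 and 73.8 RPKM in the ZnF1 mutant, 118.6 and 122.0 RPKM in the ZnF4 mutant and 93.1 and 100.4 RPKM in wild type. All 3 were separated between every pair of genotypes. Over all tested genes, 33.4% had both ZnF1 libraries below wild type and 30.9% had both ZnF4 libraries above it. Both ZnF4 libraries lay above both ZnF1 libraries in 37.0%. Birc5 (survivin), the fourth subunit, had 42.0 and 48.9 RPKM in the ZnF1 mutant, 74.3 and 63.3 RPKM in the ZnF4 mutant and 55.7 and 63.4 RPKM in wild type, with a difference of -0.38 ± 0.12 in the ZnF1 mutant (adjusted p = 0.0633). With 1 library left out, adjusted p-values reached 0.0948 for the ZnF1 calls and 0.285 for the ZnF4 calls.

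At the kinetochore all 5 genes fell in the ZnF1 mutant, while 2 rose in the ZnF4 mutant. Cenpa, the histone variant of centromeres, had 62.2 and 75.7 RPKM in the ZnF1 mutant, 103.5 and 102.1 RPKM in the ZnF4 mutant and 85.6 and 101.8 RPKM in wild type. Cenpe, a kinetochore motor, had 26.7 and 25.2 RPKM in the ZnF1 mutant, 52.6 and 37.9 RPKM in the ZnF4 mutant and 37.3 and 34.7 RPKM in wild type. At day 28 the ZnF4 value of each lay close to wild type. Ndc80, the microtubule-binding subunit of the outer kinetochore, had 12.1 and 12.2 RPKM in the ZnF1 mutant, 31.7 and 24.6 RPKM in the ZnF4 mutant and 17.2 and 18.5 RPKM in wild type. Its differences were -0.52 ± 0.12 in the ZnF1 mutant (limma, adjusted p = 0.0275) and 0.62 ± 0.12 in the ZnF4 mutant (adjusted p = 0.0282), the highest of the 46 there. Between the mutants it differed by 1.14. Nuf2, which pairs with Ndc80 in one complex, had 25.8 and 26.2 RPKM in the ZnF1 mutant, 44.4 and 37.2 RPKM in the ZnF4 mutant and 38.8 and 39.0 RPKM in wild type, and its ZnF4 values lay on either side of wild type. Cenpf, a large kinetochore and nuclear matrix protein, was the other gene that rose in the ZnF4 mutant, by 0.42 ± 0.09 (adjusted p = 0.0303). Without 1 library, adjusted p-values reached 0.232 for the ZnF1 calls and 0.262 for the ZnF4 calls.

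The spindle assembly genes Kif11, Kif2c, Tpx2 and Nusap1 all fell in the ZnF1 mutant and lay above wild type in every ZnF4 library. The latter arrangement was found in 30.9% of all tested genes. Tpx2, which activates Aurka and nucleates microtubules, had 53.8 and 51.3 RPKM in the ZnF1 mutant, 103.4 and 92.1 RPKM in the ZnF4 mutant and 78.9 and 73.5 RPKM in wild type. It was the one of the 4 that rose in the ZnF4 mutant, with differences from wild type of -0.53 ± 0.07 (limma, adjusted p = 0.00388) and 0.35 ± 0.07 (adjusted p = 0.024). Nusap1, a microtubule-bundling protein, had 57.2 and 56.0 RPKM in the ZnF1 mutant, 105.5 and 89.1 RPKM in the ZnF4 mutant and 78.9 and 80.2 RPKM in wild type. Kif11 (Eg5), the motor that separates the spindle poles, differed from wild type by -0.62 ± 0.09 in the ZnF1 mutant, and Kif2c (MCAK), which depolymerises microtubules, by -0.50 ± 0.12. In the ZnF4 mutant they differed by 0.17 and 0.47. With 1 library left out, adjusted p-values reached 0.236 for the ZnF1 calls and 0.224 for the ZnF4 call, whereas between the mutants all 4 held in every such fit.

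Of the 6 cytokinesis genes, 5 fell in the ZnF1 mutant and 3 rose in the ZnF4 mutant. In all 6 both ZnF4 libraries lay above wild type, as they did in 30.9% of all tested genes. Racgap1, a subunit of centralspindlin, had 49.0 and 48.9 RPKM in the ZnF1 mutant, 86.2 and 84.8 RPKM in the ZnF4 mutant and 68.1 and 68.3 RPKM in wild type. The days of each genotype were nearly alike, and the differences from wild type were -0.47 ± 0.06 (limma, adjusted p = 0.00462) and 0.32 ± 0.06 (adjusted p = 0.0266). Ect2, the exchange factor that Racgap1 recruits to activate RhoA, had 23.9 and 23.0 RPKM in the ZnF1 mutant, 45.4 and 40.0 RPKM in the ZnF4 mutant and 38.0 and 36.2 RPKM in wild type. Its difference in the ZnF1 mutant, -0.64 ± 0.07 (adjusted p = 0.00246), was the lowest after that of Cdc25b. Kif20a, a midzone motor whose exons overlap those of Cdc23, had 50.0 and 53.1 RPKM in the ZnF1 mutant, 87.3 and 84.5 RPKM in the ZnF4 mutant and 73.3 and 73.1 RPKM in wild type. Prc1, which bundles midzone microtubules, had 36.6 and 35.3 RPKM in the ZnF1 mutant, 66.1 and 57.7 RPKM in the ZnF4 mutant and 48.3 and 42.8 RPKM in wild type. Anln (anillin), a scaffold of the contractile ring, had 20.8 and 18.9 RPKM in the ZnF1 mutant, 36.7 and 29.4 RPKM in the ZnF4 mutant and 24.7 and 22.2 RPKM in wild type. For Anln and Prc1 the ZnF4 difference was the larger in size. Their differences were -0.23 ± 0.08 (adjusted p = 0.0701) and -0.33 ± 0.07 (adjusted p = 0.0195) in the ZnF1 mutant. They were 0.47 ± 0.08 (adjusted p = 0.016) and 0.43 ± 0.07 (adjusted p = 0.0155) in the ZnF4 mutant. Without 1 library, adjusted p-values reached 0.176 for the ZnF1 calls and 0.239 for the ZnF4 calls, and all 6 held between the mutants.

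The condensin I subunits Smc2, Smc4, Ncapd2, Ncapg and Ncaph, which compact chromosomes, and Top2a, the topoisomerase that untangles them, all fell in the ZnF1 mutant. Top2a had the highest mean level per transcript length of the 46 genes, with 167.1 and 172.6 RPKM in the ZnF1 mutant, 315.0 and 264.8 RPKM in the ZnF4 mutant and 268.3 and 255.0 RPKM in wild type. Smc4 had 90.3 and 105.6 RPKM in the ZnF1 mutant, 196.2 and 155.1 RPKM in the ZnF4 mutant and 144.2 and 155.4 RPKM in wild type. At day 28 the ZnF4 values of both lay within the wild-type range, and Smc4 had the widest standard error of the 46, with a difference of -0.61 ± 0.15 in the ZnF1 mutant (limma, adjusted p = 0.0271). Ncaph was the one that rose in the ZnF4 mutant, with 52.5 and 50.1 RPKM in the ZnF1 mutant, 95.6 and 86.7 RPKM in the ZnF4 mutant and 75.7 and 69.3 RPKM in wild type. Its differences from wild type were -0.49 ± 0.07 (adjusted p = 0.00452) and 0.33 ± 0.07 (adjusted p = 0.0281). Without 1 library, adjusted p-values reached 0.216 for the ZnF1 calls and 0.235 for the ZnF4 call.

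The regulators Foxm1 and Mybl2 (B-Myb), which drive transcription of this gene set, and the proliferation marker Mki67 all fell in the ZnF1 mutant. Foxm1 had 35.0 and 33.1 RPKM in the ZnF1 mutant, 60.6 and 62.3 RPKM in the ZnF4 mutant and 49.1 and 46.5 RPKM in wild type, and rose in the ZnF4 mutant, with differences of -0.48 ± 0.07 (limma, adjusted p = 0.00585) and 0.36 ± 0.07 (adjusted p = 0.0255). Mybl2 had 10.2 and 14.3 RPKM in the ZnF1 mutant, 14.7 and 18.9 RPKM in the ZnF4 mutant and 15.3 and 17.8 RPKM in wild type. Its ZnF4 and wild-type values overlapped, with a difference of 0.01 ± 0.09. Mki67 (Ki-67), second in level to Top2a, had 163.0 and 137.6 RPKM in the ZnF1 mutant, 294.4 and 241.0 RPKM in the ZnF4 mutant and 248.9 and 215.6 RPKM in wild type. It was lower at day 28 in each genotype, and its difference from wild type was -0.63 ± 0.08 in the ZnF1 mutant (adjusted p = 0.00319) and 0.20 ± 0.08 in the ZnF4 mutant (adjusted p = 0.138). Without 1 library, adjusted p-values reached 0.168 for the ZnF1 calls and 0.228 for the ZnF4 call.

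No mitosis gene was called between the days of culture. Between day 28 and day 21, limma called 0 of 46 genes and 0 of all 11379 (0.0%), also without its mean-variance trend among the 46. There were 6 of 46 and 1631 of all genes at an unadjusted p below 0.05 and a lowest adjusted p of 0.196 among the 46. Within each genotype, with 1 library per day and so no test, day 28 was the higher in 29 genes and the lower in 16 in the ZnF1 mutant (median change 0.06 on the log2 scale). It was the higher in 12 and the lower in 34 in the ZnF4 mutant (median -0.11), and the higher in 24 and the lower in 22 in wild type (median 0.01). Over all tested genes the median changes were 0.05 in the ZnF1 mutant, 0.01 in the ZnF4 mutant and 0.0 in wild type. In the ZnF4 mutant the changes ran from -0.46 for Cenpe to 0.47 for Cdc20.

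Other genes of cell division were read beside the 46, from lists assembled by function. Of 27 further kinetochore genes, 21 (77.8%) were called lower and 0 higher in the ZnF1 mutant against wild type (median -0.39) and 5 (18.5%) higher and 0 lower in the ZnF4 mutant (median 0.25). The background over all tested genes, given above, was 15.2% lower in the ZnF1 mutant and 10.9% higher in the ZnF4 mutant. Ska1, which couples kinetochores to microtubules, had 8.9 and 7.6 RPKM in the ZnF1 mutant, 17.5 and 16.1 RPKM in the ZnF4 mutant and 12.9 and 11.8 RPKM in wild type, with the genotypes apart. Its call held in 2 of 6 fits with a library left out in the ZnF1 mutant and in 0 of 6 in the ZnF4 mutant. Of 27 further spindle and cytokinesis genes, 22 (81.5%) were called lower in the ZnF1 mutant (median -0.45) and 6 (22.2%) higher in the ZnF4 mutant (median 0.26). Of the 24 S-phase genes, which replicate DNA, 21 (87.5%) were called lower in the ZnF1 mutant (median -0.42), and 24 of 24 were called higher in the ZnF4 mutant than in the ZnF1 mutant. Against wild type, 3 (12.5%) were called higher in the ZnF4 mutant (median 0.21), a share near the background. When any 1 library was left out, the calls against wild type dropped to as few as 0, 0 and 1 of the kinetochore, spindle and S-phase lists in the ZnF1 mutant, and to 0 of each in the ZnF4 mutant. The mean log2 level of the 46 genes exceeded that of the S-phase genes by 0.36 and 0.37 in the ZnF1 mutant, by 0.48 and 0.44 in the ZnF4 mutant and by 0.45 and 0.42 in wild type.

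The remaining lists held genes with other patterns. Of 14 subunits and regulators of the anaphase-promoting complex, 5 (35.7%) were called lower in the ZnF1 mutant (median -0.13) and 2 (14.3%), Cdc16 and Fzr1, higher in the ZnF4 mutant (median 0.20), a share near the background. Both of these calls were lost in all 6 fits with a library left out, with adjusted p-values of up to 0.284 and 0.331. Among 16 MuvB, E2F and Rb-like genes, 9 (56.2%) were called lower in the ZnF1 mutant (median -0.37). Over all tested genes, 15.2% were called lower and 22.9% higher in this mutant. The paired repressors E2f7 and E2f8 both fell there, with differences of -0.63 ± 0.07 and -0.70 ± 0.09. In the ZnF4 mutant E2f7 rose, with a difference of 0.48 ± 0.07 (limma, adjusted p = 0.0121). There E2f8 fell, with a difference of -0.47 ± 0.09 (adjusted p = 0.0216). They were the only calls of this list there, 1 higher and 1 lower (6.25% each), against 10.9% and 7.32% of all tested genes. E2f8 had 35.7 and 35.0 RPKM in the ZnF1 mutant, 45.1 and 38.2 RPKM in the ZnF4 mutant and 57.5 and 58.2 RPKM in wild type, so both mutants lay below wild type. Among 13 cohesin genes, 8 (61.5%) were called lower in the ZnF1 mutant (median -0.41), and 1 (7.69%) higher, a share below that of all tested genes. The one called higher was Wapal, which releases cohesin from chromosomes, with 11.8 and 11.8 RPKM in the ZnF1 mutant, 9.8 and 11.6 RPKM in the ZnF4 mutant and 6.3 and 7.9 RPKM in wild type. It was above wild type in both mutants, by 0.67 ± 0.10 (limma adjusted p = 0.00658) and 0.53 ± 0.10 (adjusted p = 0.0234). Of the cohesin genes 2 (15.4%), Wapal and Cdca5, were called higher in the ZnF4 mutant, against 10.9% of all tested genes. Of 14 further regulators of mitotic entry and exit, 6 (42.9%) were called lower in the ZnF1 mutant (median -0.31). In this list 1 (7.14%), Cdc14b, was called higher, again a share below that of all tested genes. Its values lay near the filter of 1 RPKM and are less certain. They were 1.3 and 1.2 RPKM in the ZnF1 mutant, 0.4 and 0.3 RPKM in the ZnF4 mutant and 0.5 and 0.4 RPKM in wild type. Melk, a kinase of proliferating cells, had a difference of 0.64 ± 0.07 in the ZnF4 mutant (limma adjusted p = 0.00454). In the ZnF1 mutant its difference was -0.11 ± 0.07 (adjusted p = 0.273). Of this list 2 (14.3%), Melk and Lmnb1, were called higher in the ZnF4 mutant, against 10.9% of all tested genes. Condensin II, with 3 genes, had 2 (66.7%) called lower in the ZnF1 mutant and 0 called in the ZnF4 mutant. Each call of E2f7, E2f8, Wapal, Melk and Cdc14b against wild type was lost without at least 1 library. In each list of this paragraph, the genes called lower in the ZnF1 mutant all lost their call when certain single libraries were left out.

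**Figure D5:**
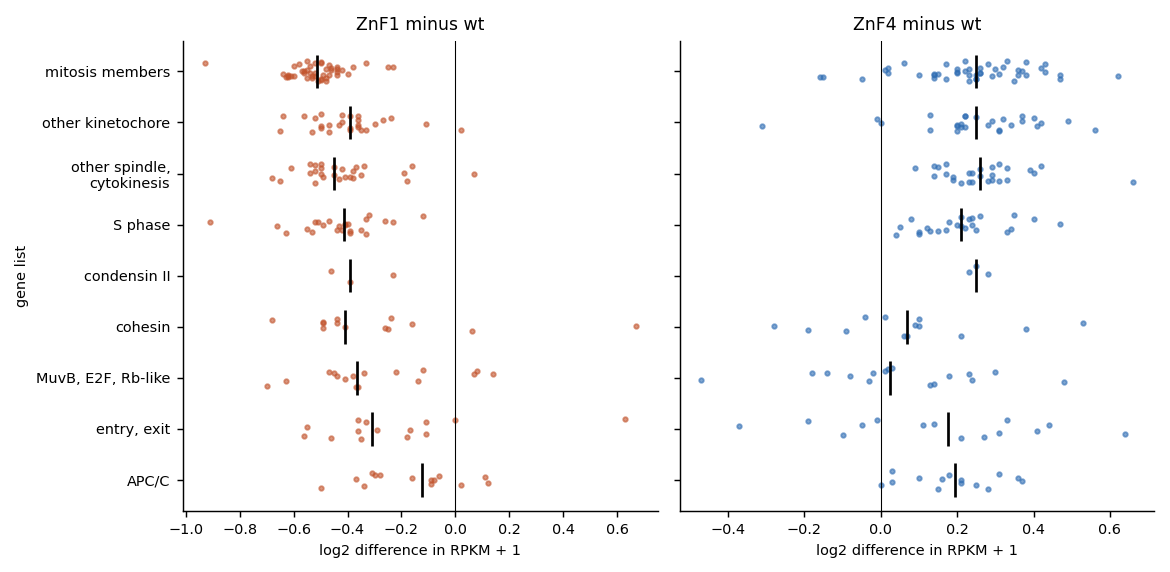
Log2 difference in RPKM + 1 from wild type (x axis) for every tested gene (points) of the 46 mitosis genes and 8 other lists (rows), with the ZnF1 mutant in the left panel, the ZnF4 mutant in the right panel and list medians as black bars. Medians run from -0.52 for the mitosis genes to -0.13 for the anaphase-promoting complex in the ZnF1 mutant, and from 0.02 to 0.26 in the ZnF4 mutant.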

How the data were processed

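Poly(A) RNA of 6 mouse libraries was sequenced from fragmented double-stranded cDNA, per the labels' protocols, a preparation for which no strand marking is stated. The authors deposited RPKM per RefSeq transcript. TopHat, bedtools and mm9 are named in the submitters' processing notes. Their versions and the treatment of reads with several matches are not given in the sources used here. Read totals, and so the depth behind each value, are unknown, and no counting intervals are given.

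The table holds 26531 transcript rows and 22098 symbols, of which 3305 have several rows; a single stray line with no gene was dropped. The row with the highest mean was kept per symbol. Genes with at least 1 RPKM in at least 2 libraries (11379) were tested on log2(RPKM + 1) with limma 3.58.1 in R 4.3.3 (mean-variance trend, two-sided, genotype and day as terms, all 6 libraries sharing 1 estimate of spread, residual df 2, prior df 3.22, Benjamini-Hochberg over all tested genes, called below 0.05). Differences are on this scale, so they understate changes of low genes. The procedure was tested on simulated data. The labels give each day to all 3 genotypes, and the day change of 1 genotype correlated over genes with that of another by 0.226 to 0.433, so day was kept as the replicate block.

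The 46 genes, the other lists and the markers were chosen with earlier results of these data known. One marker gene is not reported here. Values per library were given for the 2 highest genes of each role and the 5 with the smallest p per comparison and direction. Those of opposite sign were added. Singled out after their values were seen were Cdk1, Ccnb1, Cdc25c, Bub1, Espl1, Birc5, Ndc80, Nuf2 and Mybl2. Among the others the same holds for Ska1, E2f8, Wapal, Melk and Cdc14b. In GENCODE M21, exons of 10 of the 46 genes overlap a gene on the opposite strand and those of 1, Foxm1, a gene on the same strand, so their values are less certain. Alternatives were the mean of a symbol's rows, a pseudocount of 0.1, no filter, a mean of at least 4 RPKM, 3 other scalings, no trend, no day term, only the 2 genotypes compared, and each library left out. Sequences are from RefSeq (GRCm38.p6) and were not placed on mm9.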

Additional observations from a re-analysis of the deposited data

How the results depend on the processing

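No called difference of the 46 genes or of the other genes named changed sign under any alternative. In the ZnF1 mutant against wild type 31 (no filter) to 46 (scaling to 5 pro-B genes) were called under the settings that keep all libraries, against 43 as reported, and 3 to 44 with 1 library left out. In the ZnF4 mutant against wild type, 13 as reported, 6 were called without the filter, 24 with scaling to 5 pro-B genes, 2 with only the 2 genotypes compared and 0 to 2 with 1 library left out; the cause was not tested beyond the smaller number of libraries. Between the mutants 33 to 44 were called with 1 library left out. The day served as the replicate block for pairing; without the replicate block 38, 9 and 44 genes were called in the ZnF1 mutant against wild type, the ZnF4 mutant against wild type and the ZnF4 mutant against the ZnF1 mutant. Quantile scaling moved the median of all genes in the ZnF1 mutant against wild type to -0.12, beside -0.44 for the 46; scaling to 5 pro-B genes moved it to -0.10, beside -0.61. Between the mutants that scaling moved it to 0.19, beside 0.95. With 2 libraries per genotype and 2 residual degrees of freedom, the precision is that of the standard errors given, and read depth is unknown.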

Other observations

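For 9 of the 46 genes the table holds more than 1 transcript row, and the report uses the highest. The second Birc5 row, a longer transcript, had 23.3 and 28.2 RPKM in the ZnF1 mutant at day 21 and day 28, 38.2 and 36.4 RPKM in the ZnF4 mutant and 30.3 and 36.3 RPKM in wild type. Unlike the row in the report, it was higher in both ZnF4 libraries than in both wild-type libraries, if narrowly. The second Pttg1 row had 5.4 and 7.0 RPKM in the ZnF1 mutant, 6.2 and 6.8 RPKM in the ZnF4 mutant and 6.4 and 7.5 RPKM in wild type, with the genotypes as close together as in the row used. The second Tpx2 row had 5.5 and 4.8 RPKM in the ZnF1 mutant, 8.7 and 9.4 RPKM in the ZnF4 mutant and 8.5 and 7.3 RPKM in wild type, with the ZnF1 mutant lowest again. These rows were not tested, and no source used here says how reads common to several transcripts were shared among them.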
